A study of Mus musculus with 9 samples.

Results

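The genes of the subunits of nuclear RNA polymerases I, II and III (Pol I, Pol II and Pol III) were followed in mouse CD8+ T cells with and without Tsc1. The members were the genes whose symbol in the array's annotation begins with Polr1, Polr2 or Polr3 and a letter from a to l, each read from 1 probe set annotated to that gene alone, the brightest one on average across the 9 arrays. This gave 23 genes out of 17097, covered by 42 of the array's 45037 probe sets. The array also carried Twistnb, Znrd1 and Crcp, which encode subunits under older names and are described as partners. Polr2m, a Pol II gene whose letter lies past l, was also measured and is described beside the classes. Polr2i, Polr2k and Polr3g were not analysed here.

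The RNA was from CD8+ T cells of the spleen that recognise OVA, an antigen commonly used as a model, purified by sorting from C57BL/6 mice on day 9 of a Listeria monocytogenes infection. The 4 WT samples came from mice with floxed Tsc1 alleles and no cre, and the 5 Tsc1-/- samples from mice with the same floxed alleles and a cre driven by Granzyme B, a gene of activated killer cells. Infection and floxed alleles were thus shared by both groups, whereas cre was carried by the Tsc1-/- group alone, so that cre and Tsc1 loss cannot be told apart. Granzyme B is switched on after activation, so cells before their first response are not expected to express this cre. Levels are on the log2 scale, 1 value per gene and array, and a difference is always the Tsc1-/- mean minus the WT mean on that scale.

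Pol I transcribes the large ribosomal RNA precursor, Pol II transcribes messenger RNAs, and Pol III makes transfer RNAs, 5S ribosomal RNA and other short RNAs. Each enzyme has a catalytic core made of its largest subunits, an assembly platform related to the bacterial alpha subunits, a protruding stalk and a set of small subunits that are the same proteins in all 3 enzymes, while Pol I and Pol III also carry built-in relatives of Pol II initiation factors. Tsc1 restrains the kinase complex mTORC1, which in growing cells promotes Pol I transcription through the initiation factor Rrn3 and Pol III transcription by inhibiting the repressor Maf1. Proliferating T cells need large amounts of ribosomes and transfer RNAs, the products of Pol I and Pol III.

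The arrays correlated at 0.987 to 0.991 within a genotype and at 0.982 to 0.990 between genotypes (Pearson, over all probe sets). Tsc1 read 7.56 to 7.77 in WT and 7.27 to 7.51 in Tsc1-/-, a difference of -0.26 (SE 0.08, adjusted p = 0.114, limma). Where this probe set lies relative to the floxed exons is not known here, so it may not read the deletion. The median over all probe sets was 6.03 to 6.05 on the WT arrays and 5.97 to 6.02 on the Tsc1-/- arrays, without overlap. T cell genes marked the sort: Cd8a read 12.08 in WT and 12.10 in Tsc1-/-, and the mean level of 7 T cell genes lay between 11.60 and 11.68 on all arrays. Macrophage and monocyte markers were lower in Tsc1-/- in 13 of 13 cases, 0 of them past the threshold, with a mean level of 6.40 to 7.25 in WT and 6.27 to 6.64 in Tsc1-/-. WT replicate 4 was the WT array at 6.40, and the other 3 lay at 7.07 to 7.25. Dendritic cell markers were lower in 9 of 9 and B cell markers in 7 of 8 cases. Neutrophil markers were lower in 7 of 7 and erythroid markers in 3 of 4 cases. Of 18 mitosis genes, all had a positive difference and 6 rose, where 48.2% of all genes had a positive difference and 0.971% were called higher. The mean level of the mitosis genes was 7.40 to 8.07 in WT and 8.26 to 8.55 in Tsc1-/-. In bulk RNA, fewer cells of a type and less RNA per cell cannot be told apart.

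In Tsc1-/- cells, Polr2d, which encodes a stalk subunit of Pol II, rose, and no other subunit passed the threshold in either direction (limma, Benjamini-Hochberg adjusted p under 0.05 over all 17097 genes). That is 1 of 23 subunits higher (4.35%) and 0 lower, where 0.971% of all genes were called higher and 0.310% lower, 1.28% together, and 1.81% of the genes at or above the median gene's level were called higher. These shares are 166 and 53 genes, which became 58 and 32 under quantile normalization, 381 and 57 under median centring, and 55 and 44 once each array's trend with level and gene size was taken out. The adjusted p was 0.0605 for Polr3k, a Pol III subunit that helps the enzyme to cleave its RNA, and 0.0696 for Polr2g, the partner of Polr2d in the stalk. The arrays of the genotypes did not overlap for Polr2d, Polr2g, Polr2j, Polr2h, Polr2l and Polr3k, all higher in Tsc1-/-. These 6 are 26.1% of the subunits, where 5.08% of all genes separated upward, and 9.15% of the 8799 genes at or above the median gene's level, to which 21 of the subunits belonged (all but Polr1b and Polr3d). No subunit separated downward, against 2.88% of all genes, so that 7.96% of all genes separated in either direction. An unadjusted p under 0.05 was found for 5 subunits higher (21.7%, against 9.83% of all genes and 16.7% of those at or above the median gene's level) and 0 lower (against 7.34% and 7.41%).

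**Figure D1:**
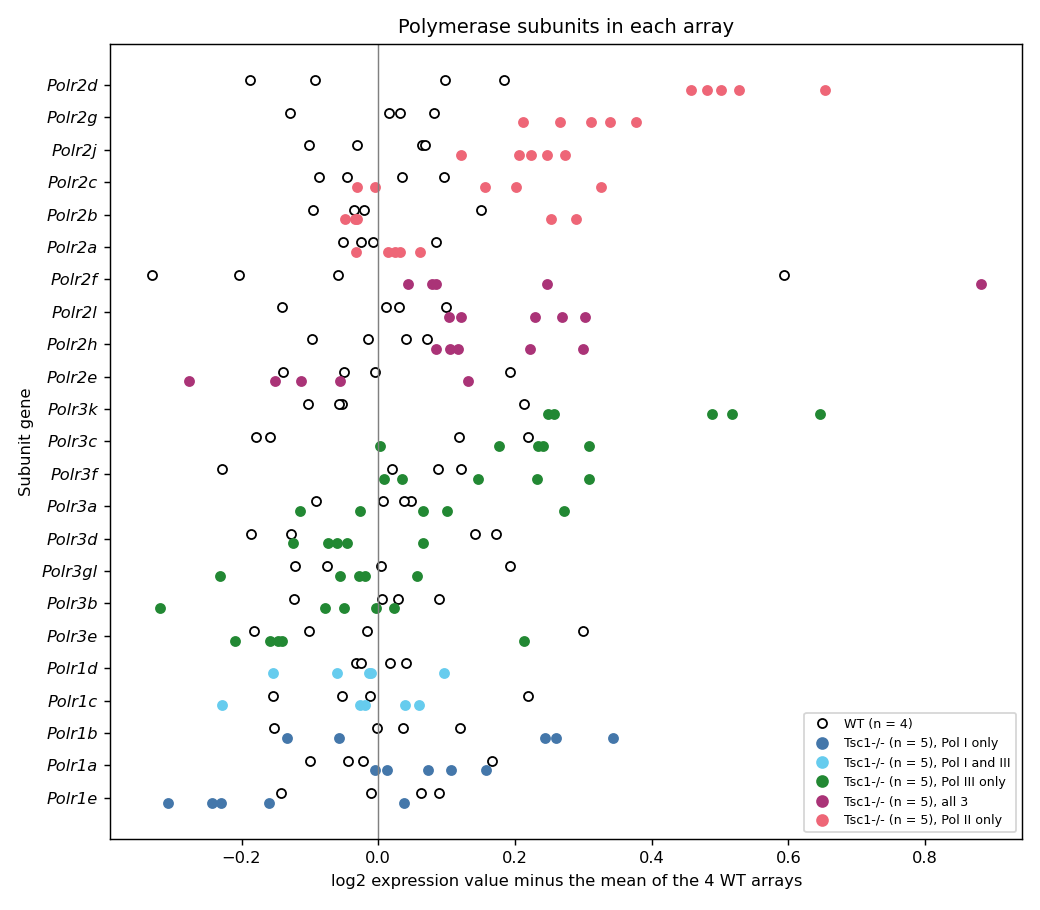
Log2 expression value of each of the 23 subunit genes on each array, minus the mean of the 4 WT arrays (open points WT, filled points Tsc1-/-, coloured by the polymerase that uses the subunit). The 5 Tsc1-/- points lie to the right of all 4 WT points for Polr2d, Polr2g, Polr2j, Polr2l, Polr2h and Polr3k.

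The stalk of Pol II is formed by Polr2d (RPB4) and Polr2g (RPB7), a pair that binds the emerging RNA and contacts initiation factors. Polr2d read 7.13, 6.85, 7.22 and 6.94 in WT replicates 1 to 4 and 7.49, 7.56, 7.52, 7.54 and 7.69 in Tsc1-/- replicates 1 to 5. Every Tsc1-/- array thus lay above every WT array, and the WT arrays were spread more widely than the Tsc1-/- arrays. The WT mean was 7.04 ± 0.17 (SD, n = 4), that of Tsc1-/- was 7.56 ± 0.08 (SD, n = 5), a difference of 0.52 (SE 0.09, 95% interval 0.33 to 0.72, adjusted p = 0.0318, limma). On the unlogged scale the Tsc1-/- level was 144% of the WT level. Among the 17097 genes the difference of 0.52 stood at percentile 98.9.

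Polr2g read 9.44, 9.39, 9.23 and 9.37 in WT and 9.57, 9.62, 9.70, 9.67 and 9.73 in Tsc1-/-. These groups did not overlap either, and their spread was small, with an SD of 0.09 (n = 4) and 0.06 (n = 5). The difference was 0.30 (SE 0.08, 95% interval 0.14 to 0.47, adjusted p = 0.0696, limma), which missed the threshold. Polr2d and Polr2g each had a single probe set, so neither could be checked by a further one. Without WT replicate 1 or 2, or Tsc1-/- replicate 2, 3, 4 or 5, Polr2d differed by 0.56, 0.46, 0.52, 0.54, 0.53 and 0.49 and its adjusted p was 0.106, 0.0966, 0.0737, 0.0514, 0.0581 and 0.0826 in that order. When the macrophage or the mitosis marker level was added as a term, its difference was 0.54 and 0.46 and its adjusted p 0.267 and 0.641, in limma fits in which 0 genes passed and 1056 and 724 genes were higher at an unadjusted p under 0.05.

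Stalk counterparts in the other enzymes are encoded by Crcp, the Pol III relative of Polr2d, and Twistnb, the Pol I relative of Polr2g. Crcp differed by 0.34 (95% interval 0.13 to 0.55, adjusted p = 0.0913, limma), again without overlap between the genotypes. Twistnb differed by 0.0033 (95% interval -0.16 to 0.17).

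RNA cleavage by Pol III rests on Polr3k (RPC11), a small subunit that lets the enzyme trim its transcript when it pauses or terminates. Polr3k read 7.85, 7.85, 7.80 and 8.12 in WT and 8.39, 8.55, 8.15, 8.16 and 8.42 in Tsc1-/-. The groups did not overlap, but WT replicate 4 came within reach of Tsc1-/- replicates 3 and 4. The difference was 0.43 (SE 0.10, 95% interval 0.21 to 0.66, adjusted p = 0.0605, limma). Without WT replicate 4 it was 0.50 and passed (adjusted p = 0.0351, limma), in a fit that called 297 of all genes higher. Polr3k did not pass without any other single array. The adjusted p then ran from 0.0707 (without Tsc1-/- replicate 3) to 0.179 (without WT replicate 1) in limma fits. Of its 4 further probe sets, 2 gave 0.44 and 0.40 with no overlap between the genotypes (adjusted p = 0.0607 and 0.0449 over single-gene probe sets, limma), while the others gave 0.12 and -0.10 with overlap. Znrd1, the Pol I subunit with the same function, differed by 0.14 (95% interval -0.04 to 0.32).

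The promoters of Polr3k and Polr2j, which separated the genotypes, and of Polr2a, which did not, are shown to set the sequence beside the values. Each is the 250 bases before the start of the gene (RefSeq, GRCm38.p6), 5′ to 3′ on the strand of the gene, at chr2:181864110-181864359, plus strand, chr5:136116441-136116690, plus strand, and chr11:69758634-69758883, minus strand. Capitals mark matches to 6 short motifs searched on both strands, the ETS motif CCGGAAGT, the palindromic NRF1 motif, the E-box CACGTG, the GC box GGGCGG, the CCAAT box CCAAT and the TATA box TATAAA.
Polr3k: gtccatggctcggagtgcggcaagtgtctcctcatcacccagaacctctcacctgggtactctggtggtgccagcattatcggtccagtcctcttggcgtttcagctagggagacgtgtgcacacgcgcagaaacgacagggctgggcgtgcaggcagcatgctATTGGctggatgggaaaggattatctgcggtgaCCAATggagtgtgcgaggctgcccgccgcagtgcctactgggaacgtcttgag
Polr2j: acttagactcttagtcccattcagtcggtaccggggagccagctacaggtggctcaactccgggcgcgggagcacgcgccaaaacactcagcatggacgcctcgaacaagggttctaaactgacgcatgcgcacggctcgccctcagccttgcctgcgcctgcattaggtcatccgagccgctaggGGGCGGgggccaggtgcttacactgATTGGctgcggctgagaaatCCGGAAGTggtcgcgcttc
Polr2a: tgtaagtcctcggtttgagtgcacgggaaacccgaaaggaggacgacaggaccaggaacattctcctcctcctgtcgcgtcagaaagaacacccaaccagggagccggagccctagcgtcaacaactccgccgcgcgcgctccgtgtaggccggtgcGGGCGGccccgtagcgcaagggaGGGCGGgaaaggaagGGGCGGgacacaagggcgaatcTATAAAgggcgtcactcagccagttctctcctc
Polr3k held CCAAT boxes at positions -86 and -53, counted back from the start. Polr2j held a GC box at -64, a CCAAT box at -39 and an ETS motif at -19. Polr2a held GC boxes at -93, -70 and -55 and a TATA box at -33. The reference table matched 19 of the 23 subunits, not Polr2d, Polr2g, Polr3a and Polr3d. Among these 19, the ETS motif was present in 4 (21.1%, against 3.23% of 27025 genes), in Polr1c, Polr2f, Polr2j and Polr3b, of which only Polr2j separated the genotypes. The GC box was present in 11 (57.9%, against 35.4%), the CCAAT box in 5 (26.3%, against 37.5%), the E-box in 2 (10.5%, against 6.86%), the TATA box in 2 (10.5%, against 14.3%) and the NRF1 motif in 0 (against 0.877%). A match is a description of the sequence and shows no binding.

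The catalytic core consists of the largest and second largest subunits, Polr1a and Polr1b, Polr2a and Polr2b, and Polr3a and Polr3b, which together form each active site. None of these 6 genes passed, their groups all overlapped, and their differences ran from -0.09 to 0.13. Polr2a, whose repeated tail is phosphorylated during transcription, read 10.53, 10.40, 10.42 and 10.44 in WT and 10.47, 10.46, 10.51, 10.42 and 10.48 in Tsc1-/-. The Tsc1-/- arrays fell inside the WT range, and the difference was 0.02 (95% interval -0.13 to 0.17). Polr2b read 8.24, 8.31, 8.48 and 8.30 in WT and 8.62, 8.30, 8.28, 8.30 and 8.58 in Tsc1-/-, a difference of 0.09 (95% interval -0.13 to 0.30) that rests on Tsc1-/- replicates 1 and 5.

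Polr1a, the largest subunit of Pol I, read 7.59, 7.78, 7.57 and 7.51 in WT and 7.72, 7.61, 7.63, 7.69 and 7.77 in Tsc1-/-. Its difference was 0.07 (95% interval -0.10 to 0.24), and its further probe sets gave -0.05 and -0.07. Polr1b, its partner in the active site, read 5.65, 5.77, 5.68 and 5.50 in WT and 5.91, 5.59, 5.99, 5.52 and 5.89 in Tsc1-/-, with 3 Tsc1-/- arrays above all WT arrays and 2 within their range (difference 0.13, 95% interval -0.11 to 0.37). Polr3a read 8.46, 8.32, 8.42 and 8.45 in WT and 8.38, 8.48, 8.30, 8.51 and 8.68 in Tsc1-/- (difference 0.06, 95% interval -0.13 to 0.25). Polr3b read 7.84, 7.78, 7.63 and 7.76 in WT and 7.68, 7.75, 7.78, 7.44 and 7.71 in Tsc1-/- (difference -0.09, 95% interval -0.28 to 0.11). For all 6 the 95% interval lay within a 1.5-fold change either way, as it did for 92.1% of all genes.

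The assembly platform pairs Polr1c with Polr1d in Pol I and Pol III, and Polr2c with Polr2j in Pol II. Polr1c read 8.99, 9.22, 8.85 and 8.95 in WT and 9.05, 9.07, 8.99, 8.78 and 8.98 in Tsc1-/-, a difference of -0.03 (95% interval -0.24 to 0.17). Polr1d read 10.84, 10.86, 10.79 and 10.80 in WT and 10.67, 10.76, 10.81, 10.81 and 10.92 in Tsc1-/-, a difference of -0.03 (95% interval -0.19 to 0.13). Both pairs of groups overlapped, and a second, dimmer Polr1d probe set gave 0.20 (adjusted p = 0.317 over single-gene probe sets, limma). The Pol II pair stood higher: Polr2j (RPB11) read 9.23 to 9.40 in WT and 9.45 to 9.60 in Tsc1-/-, a difference of 0.21 (95% interval 0.05 to 0.37, adjusted p = 0.157, limma), and its partner Polr2c (RPB3), at 7.69 to 7.87 in WT and 7.75 to 8.10 in Tsc1-/-, differed by 0.13 (95% interval -0.07 to 0.33) with overlap.

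Polr2e, Polr2f, Polr2h and Polr2l encode small subunits used by all 3 enzymes. Polr2l (RPB10) read 9.82, 9.67, 9.84 and 9.91 in WT and 10.08, 10.04, 9.91, 9.93 and 10.11 in Tsc1-/-. Polr2h (RPB8) read 8.54, 8.62, 8.71 and 8.68 in WT and 8.86, 8.74, 8.72, 8.76 and 8.94 in Tsc1-/-. Both genes separated the genotypes by narrow margins, with differences of 0.20 (95% interval 0.03 to 0.38, adjusted p = 0.217, limma) and 0.17 (95% interval -0.0032 to 0.33, adjusted p = 0.30, limma). Polr2f (RPB6) had the widest spread of the 23 subunits, with an SD of 0.41 in WT (n = 4) and 0.35 in Tsc1-/- (n = 5), and its difference of 0.27 had an interval of -0.17 to 0.71. Polr2f read 7.78 to 8.70 in WT and 8.15 to 8.99 in Tsc1-/-. A second, dimmer Polr2f probe set had an SD of 0.11 in WT and 0.10 in Tsc1-/- and differed by 0.17, with overlap. Polr2e (RPB5), with group means of 8.36 and 8.27, differed by -0.09 (95% interval -0.31 to 0.12). Its probe set, like those of Polr1c and Polr3d, belongs to a design that may also capture related transcripts.

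Built-in relatives of initiation factors are Polr1e in Pol I and Polr3c, Polr3d, Polr3e, Polr3f and Polr3gl in Pol III, which help these enzymes to open DNA and to start and end transcripts. None passed, and 4 of the 6 differences were negative. Polr1e (PAF53) had the most negative difference of the 23 subunits. It read 6.79, 6.77, 6.56 and 6.69 in WT and 6.46, 6.48, 6.54, 6.40 and 6.74 in Tsc1-/-. With Tsc1-/- replicate 5 left aside, the Tsc1-/- arrays lay below all WT arrays. Over all arrays the difference was -0.18 (SE 0.09, 95% interval -0.37 to 0.01, adjusted p = 0.325, limma).

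Polr3c read 8.53, 8.91, 8.81 and 8.51 in WT and 8.69, 8.92, 8.93, 9.00 and 8.87 in Tsc1-/- (difference 0.19, 95% interval -0.03 to 0.41, adjusted p = 0.362, limma). Its WT arrays fell into a lower and a higher pair, and the higher pair reached the Tsc1-/- level. Polr3gl, the widely expressed form of the subunit whose relative Polr3g was not analysed here, read 7.55, 7.28, 7.36 and 7.23 in WT and 7.12, 7.41, 7.33, 7.33 and 7.30 in Tsc1-/- (difference -0.06, 95% interval -0.25 to 0.14). Polr3d, Polr3e and Polr3f had WT means of 6.19, 7.06 and 6.43 and differed by -0.05, -0.09 and 0.15, all with overlap. Polr3f had 4 further probe sets, at 0.21, 0.17, 0.16 and -0.06. Across the 11 subunits with several probe sets, all probe sets of a gene had the same sign in 3.

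**Figure D2:**
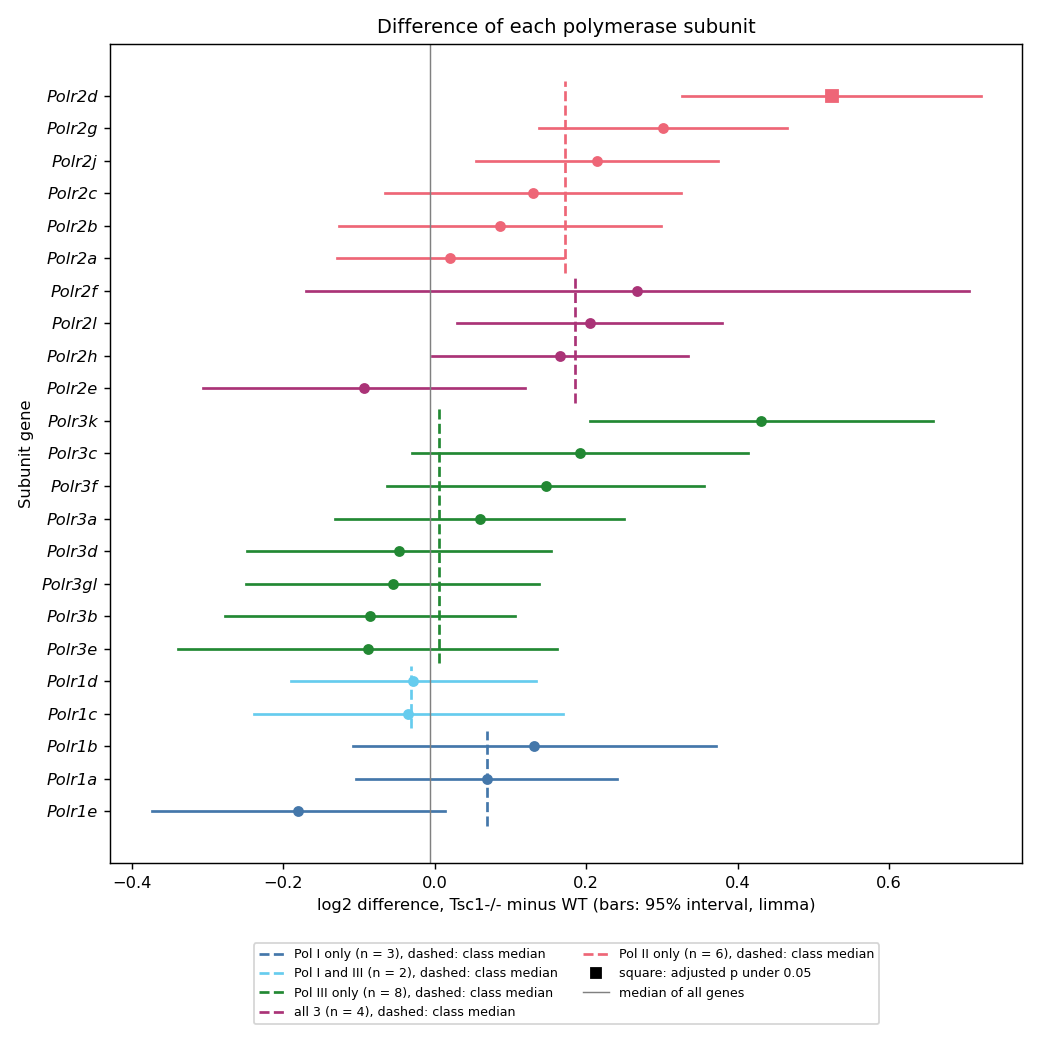
Log2 difference (Tsc1-/- minus WT) of each subunit gene with its 95% interval from limma (n = 4 and 5 arrays), coloured by the polymerase that uses it. Dashed lines mark the median of each class, at 0.17 for Pol II only and 0.01 for Pol III only, and the square marks Polr2d, the subunit past the threshold.

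Set side by side, the subunits found only in Pol II had a median difference of 0.17 over 6 genes, all of them positive in the deposited values (Polr2a was at -0.02 under quantile normalization and again -0.02 once the trend with level and gene size was taken out), and those shared by all 3 enzymes had 0.19 over 4 genes, 3 of them positive. The median was 0.07 over the 3 genes of Pol I only, -0.03 over the 2 shared by Pol I and Pol III, and 0.01 over the 8 of Pol III only, 4 of them positive. The sign of 3 of these medians depended on the settings. Pol I only was at -0.015 with a gene's probe sets averaged, -0.048 with probe sets not joined and -0.056 with dim genes left out, Pol I and III at 0.01 under median centring, and Pol III only at -0.0020 under quantile normalization. Over all 17097 genes the median was -0.01, with 48.2% positive. Over the genes at or above the median gene's level, which include all 6 Pol II only genes, the median was 0.03, with 56.8% positive. The median of all genes was 0.04 under median centring, 0.006 under quantile normalization and -0.008 with a gene's probe sets averaged. With probe sets not joined, the median of all probe sets was -0.02. The mean level of the Pol II only genes was 8.73, 8.66, 8.75 and 8.72 in WT and 8.95, 8.92, 8.89, 8.87 and 9.00 in Tsc1-/-. The mitosis marker level was 7.44, 7.40, 7.99 and 8.07 on WT replicates 1 to 4 and 8.26 to 8.55 on the Tsc1-/- arrays. When the mitosis marker level was added as a term, the order of the classes changed, with medians of 0.19 for Pol I only, 0.12 for Pol III only, 0.10 for Pol I and III, 0.090 for Pol II only and 0.032 for all 3, and Polr2b (-0.10) and Polr2c (-0.01) were negative. The mitosis level did not overlap between the genotypes, so that fit cannot cleanly separate it from genotype. The part of mitosis in these differences was not tested, nor was whether the classes differ from each other.

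**Figure D3:**
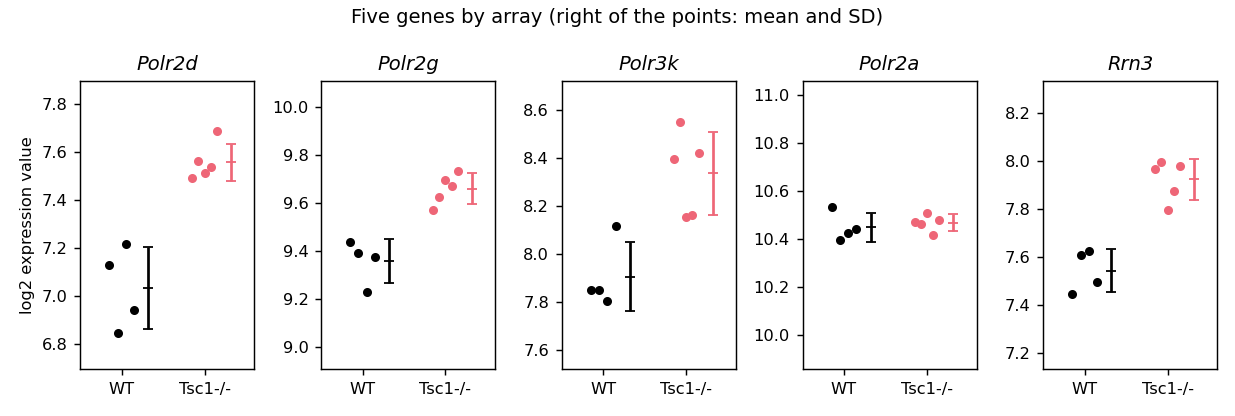
Log2 expression values of Polr2d, Polr2g, Polr3k, Polr2a and Rrn3 on each array (points), with the mean and SD of 4 WT and 5 Tsc1-/- arrays beside them. Every panel spans the same range of log2 units, and Polr2a is the gene whose groups lie at the same height.

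Gene length was set beside the differences as a description. The Spearman correlation of gene length with the difference was -0.29 over the 23 subunits and -0.09 over 16936 genes, which share the arrays and are not independent. Level and length were then removed together as 1 trend per array, so their separate parts were not tested. The median after that was 0.07 for Pol II only and 0.07 for the shared subunits. Polr2d then differed by 0.47 (adjusted p = 0.0450, limma), Polr3k by 0.34 (adjusted p = 0.134) and Polr2g by 0.18 (adjusted p = 0.273).

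**Figure D4:**
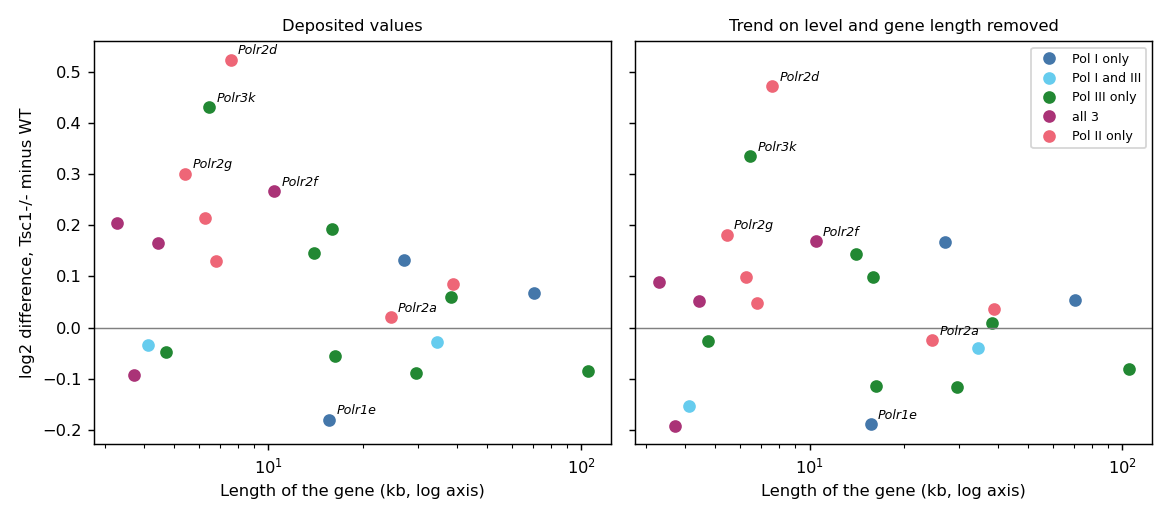
Log2 difference of each subunit against the length of its gene in kb on a log axis, from the deposited values (left) and after each array's trend on level and gene length was removed (right). Polr2d stays highest in both panels, while Polr2g drops from 0.30 to 0.18.

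Partners of the polymerases were read in 6 lists. In the Pol I list, Rrn3, the initiation factor that brings Pol I to the ribosomal RNA genes, rose, as 1 of 6 measured members, with 0 lower and a list median of 0.04, where 0.971% of all genes were called higher and 0.310% lower. Rrn3 read 7.45, 7.61, 7.63 and 7.50 in WT and 7.97, 7.997, 7.80, 7.88 and 7.98 in Tsc1-/-. All Tsc1-/- arrays lay above all WT arrays. The difference was 0.38 (SE 0.08, 95% interval 0.21 to 0.55, adjusted p = 0.0398, limma). On the unlogged scale the Tsc1-/- level of Rrn3 was 130% of the WT level. Ubtf, which binds along active ribosomal RNA genes, differed by 0.03 (95% interval -0.14 to 0.20). Leaving out any single array ended the call of Rrn3, with adjusted p between 0.0514 (without WT replicate 4) and 0.140 (without WT replicate 1) and differences from 0.35 to 0.41, and with the trend on level and gene length removed the difference was 0.33 (adjusted p = 0.0740, limma).

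The 250 bases before the start of Rrn3 (chr16:13780449-13780698, plus strand, RefSeq, GRCm38.p6) are shown with the same motifs in capitals, because Rrn3 was the Pol I factor that rose. They held E-boxes at -215 and -48, and no match to the other motifs.
Rrn3: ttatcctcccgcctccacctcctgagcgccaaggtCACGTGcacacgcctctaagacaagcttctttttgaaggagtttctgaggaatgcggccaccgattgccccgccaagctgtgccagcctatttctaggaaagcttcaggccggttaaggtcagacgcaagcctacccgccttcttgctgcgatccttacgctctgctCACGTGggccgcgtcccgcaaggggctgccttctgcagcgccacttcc

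Among the general factors of Pol II, Gtf2h5, the smallest subunit of the helicase-bearing factor TFIIH, rose by 0.42 (SE 0.08, adjusted p = 0.0375, limma), as 1 of 14 with 0 lower and a list median of 0.12. It read 8.35, 8.24, 8.49 and 8.39 in WT and 8.82, 8.85, 8.69, 8.67 and 8.88 in Tsc1-/-, without overlap. A dimmer second probe set gave 0.15. Its call held with WT replicate 4 left out (adjusted p = 0.0391) and ended without any other single array, with adjusted p between 0.0505 (without WT replicate 3) and 0.125 (without WT replicate 1).

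None of the other 4 lists had a member past the threshold. Of 17 pausing and elongation factors, Nelfcd, of the complex that holds Pol II near the start, had the smallest p and differed by 0.22 (adjusted p = 0.190, limma), and the list median was 0.03. Of 12 Pol III factors, Snapc2, of the complex that serves small nuclear RNA genes, differed by 0.36 (adjusted p = 0.0586, limma), and the list median was 0.08. Maf1, the repressor of Pol III, differed by -0.03 (95% interval -0.23 to 0.18). Brf1 was not analysed here. Of 11 assembly and import factors, Pih1d1, of the chaperone complex that assembles polymerases, differed by 0.31 (adjusted p = 0.0750, limma), and the list median was 0.06. Of 5 genes of mitochondrial transcription, Tfb1m differed by 0.39 (adjusted p = 0.0996, limma), and Polrmt, the mitochondrial RNA polymerase, by 0.21 (95% interval -0.04 to 0.46), with a list median of 0.21.

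**Figure D5:**
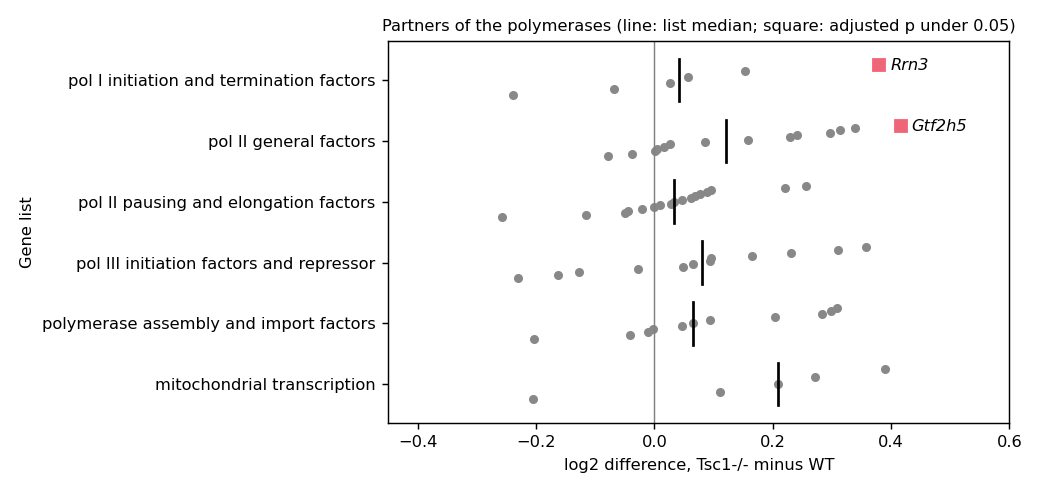
Log2 difference (Tsc1-/- minus WT) of every measured member of 6 lists of polymerase partners, with a line at each list median. Squares mark Rrn3 (0.38) and Gtf2h5 (0.42), the members past the threshold.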

How the data were processed

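RNA was measured on 1 expression array per sample in 4 WT and 5 Tsc1-/- samples, from 12 ng of total RNA each. Per the submitters' processing notes, RMA and Partek 6.5 were used. The deposited table holds 1 log2 value for each probe set and array. The deposited columns do not share 1 distribution, since their medians run from 5.97 to 6.05 and are lower in Tsc1-/-, so small differences depend on the scaling. Its options are not given in the sources used.

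Of 45037 probe sets, 28898 had 1 gene, 551 several and 15588 were unnamed. Symbols were updated through Entrez identifiers with the RefSeq table of GRCm38.p6. Tests used limma 3.58.1 (R 4.3.3; lmFit, then eBayes), two-sided, genotype as the only term, adjusted over 17097 genes, threshold 0.05, no filter on dim genes. Class medians are descriptions without a test. Samples are not stated to come from separate animals, so a p-value reflects only how these samples vary, which may be technical. Precision is set by how few arrays there are. The fit was tested on simulated data with 17097 genes (Tsc1-/- minus WT, 200 changed). It recovered 63% of changes of 0.5 and 94% of changes of 1 on the log2 scale, with 6 false calls. Noise was drawn independently for each gene, so variation that genes share on an array was not simulated. Smaller changes were not simulated either, and every subunit but Polr2d differed by less than 0.5.

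The members and lists were chosen with earlier results of these data known. All 23 subunits are given. Values on every array are printed for subunits past the threshold, the 2 with the smallest p in each class, the largest and second largest subunits and Polr3gl. From each partner list, members past the threshold or the 1 with the smallest p are named, with Maf1, Rrn3, Ubtf and Polrmt. Alternatives were averaging all probe sets of a gene, leaving probe sets separate, dim genes left out (both group means under 6.34, the median gene's level), quantile normalization, median centring, robust estimation with a trend in the variance, weighting of arrays, a replicate block, a threshold of 0.1, each array left out, the macrophage or mitosis marker level as a covariate, and each array's trend on level and gene length removed (loess, span 0.3). Leaving out WT replicate 4 with Tsc1-/- replicate 1 was added after the data were seen. Figures were drawn in Python 3.11.15.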

Additional observations from a re-analysis of the deposited data

Results flagged for a closer look

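The spread of each gene within a group of arrays was checked for a lone array (Dixon's test at the 95% level) for the 23 subunits, Rrn3 and Gtf2h5 in both genotypes, 50 groups in all. Chance flags about 1 in 20 such groups, and 3 were found. Polr2f read 8.99 in Tsc1-/- replicate 4, where the other 4 Tsc1-/- arrays read 8.15 to 8.36. Polr3e read 7.27 in Tsc1-/- replicate 2, where the others read 6.85 to 6.92. Polr3k read 8.12 in WT replicate 4, where the other 3 WT arrays read 7.80 to 7.85.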

How the results depend on the processing

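The difference of Polr2d kept its sign in all 22 other settings (0.46 to 0.59) and passed in 13 of them, Polr3k in 6, Polr2g in 4, Rrn3 in 6 and Gtf2h5 in 6, and these 5 genes kept their sign in all 22. No other subunit passed in any setting. The number of subunits called higher was 3 with dim genes left out, with median centring, with a variance trend and at a threshold of 0.1, 2 with array weights, 0 to 2 without single arrays, and 0 with either marker level as a covariate. All genes called higher and lower were 166 and 53, against 1 to 297 and 1 to 159 without single arrays, 543 and 151 with dim genes left out, 509 and 171 with a variance trend, 340 and 125 with array weights, 529 and 209 at a threshold of 0.1, 69 higher with probe sets not joined, 58 and 32 with quantile normalization, 381 higher with median centring, 55 higher without the trend on level and length, 145 lower without WT replicate 4 and Tsc1-/- replicate 1, and 0 and 0 with either covariate (724 and 521 genes at an unadjusted p under 0.05 for mitosis, 1056 and 684 for macrophage). Higher genes were 75.8% of calls as deposited, 64.4% with quantile normalization, 87.0% with median centring and 55.6% without the trend on level and length. The median of Pol I only was -0.048 with probe sets not joined and -0.056 with dim genes left out. The mitosis level did not overlap between the genotypes. With it as a covariate the medians were 0.19 (Pol I only), 0.10 (Pol I and III), 0.090 (Pol II only), 0.12 (Pol III only) and 0.032 (all 3). The median of Pol III only was 0.075 with the macrophage level as a covariate, and those of Pol II only and all 3 were 0.073 and 0.070 without the trend on level and length. The cause of these changes was not tested.

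The replicate numbers are shared between genotypes, but same-numbered arrays deviated together only at r = -0.07, 0.10, -0.06 and 0.02. Whether the numbers pair the samples is not stated in the labels, and these correlations cannot decide it. With the replicate block, in which Tsc1-/- replicate 5 has no WT partner and carries no weight, 0 subunits, and 0 genes higher and 0 lower, passed (1303 and 1051 at an unadjusted p under 0.05), and Polr2d differed by 0.49 (adjusted p = 0.152, limma). The class medians without single arrays ran from 0.15 to 0.20 for Pol II only, 0.15 to 0.21 for all 3, 0.04 to 0.12 for Pol I only, -0.06 to 0.01 for Pol I and III, and -0.02 to 0.04 for Pol III only. Precision is limited by the number of arrays, and the SE was largest for Polr2f (0.20), Polr3e (0.12) and Polr1b (0.11).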
